A study of Mus musculus with 6 samples.

Results

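The Ndrg gene family (Ndrg1, Ndrg2, Ndrg3 and Ndrg4) was followed in CD31-sorted mammary endothelial cells of mice with and without Ets2 in fibroblasts. Its members were all probe sets whose platform annotation names exactly 1 gene, that gene being one of the 4, which gave 10 of the 45037 probe sets tested. Of these, 5 measure Ndrg1, 1 measures Ndrg2, 2 measure Ndrg3 and 2 measure Ndrg4, out of 18193 genes with a probe set of their own. The family was chosen because Ndrg4 stood out in the same comparison, so the differences of its members are given as a description, with no test.

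RNA of 6 samples was hybridized to Affymetrix mouse arrays, with an array for each sample. The 3 control samples came from PyMT;Ets2db/loxP mice and the 3 deleted samples from PyMT;Fsp-cre;Ets2db/loxP mice, all FVB/N and aged 9 weeks. Both groups carried PyMT, a viral oncogene that the MMTV promoter drives in the mammary epithelium, and both carried Ets2db, a germline knockout allele of Ets2. Every cell of either group therefore had at most 1 working Ets2 allele, the loxP allele, and the groups differed in Fsp-cre, a Cre under the promoter of Fsp1 (S100a4). Fsp1 is best known from fibroblasts and is also found in some leukocytes. The source field of the control samples names no oncogene, against their title, description and genotype, and the genotype was used. The study counts them as biological replicates. The comparison asks how Ets2 in fibroblasts bears on gene expression in the neighboring endothelium.

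The Ndrg proteins (N-myc downstream regulated genes) share the fold of alpha/beta hydrolases but lack the catalytic residues of those enzymes. Ndrg1 is the founding member, is repressed by N-Myc and Myc, rises in hypoxia and iron depletion and is phosphorylated by the kinase Sgk1. It is known as a suppressor of metastasis and is needed by the Schwann cells of peripheral nerves. Ndrg2 is found in astrocytes, muscle and heart and is often silenced in tumors. Ndrg3 protein is degraded with the help of the oxygen sensor Egln1 (PHD2) and is stabilized by lactate in hypoxia. Ndrg4 is known from neurons and heart muscle.

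Values are RMA signals on the log2 scale, and a negative difference means lower in deleted samples. Signals of different probe sets cannot be set against each other as transcript levels. Of the markers of the sorted cell type, the 14 endothelial genes were all bright, exceeding 81.0% (Erg) to 98.5% (Emcn) of all probe sets. Markers of other cells were present as well. The epithelial keratin Krt8 was brighter than 99.4% of probe sets, the macrophage receptor Csf1r than 85.8% and the fibroblast receptor Pdgfra than 66.3%. Control replicate 3 stood apart on the first principal component, at 70.2 against -37.1 to 35.8 for the other arrays. Its 3' control probe sets also exceeded the 5' ones the most, by 1.31 at Gapdh (0.75 to 1.01 on the other arrays) and by 1.67 at beta-actin (0.99 to 1.29).

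Ndrg4 was lower in the deleted samples at both of its probe sets, and the groups overlapped at every probe set of Ndrg1, Ndrg2 and Ndrg3. At the brighter Ndrg4 probe set, 1436188_a_at, the control arrays read 6.35, 6.24 and 6.86 and the deleted arrays 5.08, 4.96 and 5.68. The lowest control array thus lay 0.56 above the highest deleted array. The means were 6.49 ± 0.33 and 5.24 ± 0.39 (SD, n = 3 each), a difference of -1.25 (SE 0.25), or 2.37-fold lower. At the other probe set, 1426615_s_at, the control arrays read 6.32, 6.07 and 6.93 and the deleted arrays 4.62, 5.40 and 5.64. The groups were again apart, here by 0.43. The means were 6.44 ± 0.44 and 5.22 ± 0.54 (SD, n = 3 each), a difference of -1.22 (SE 0.32), or 2.33-fold lower. The suffix s of this probe set marks, in Affymetrix naming, probes shared by several transcripts.

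**Figure D1:**
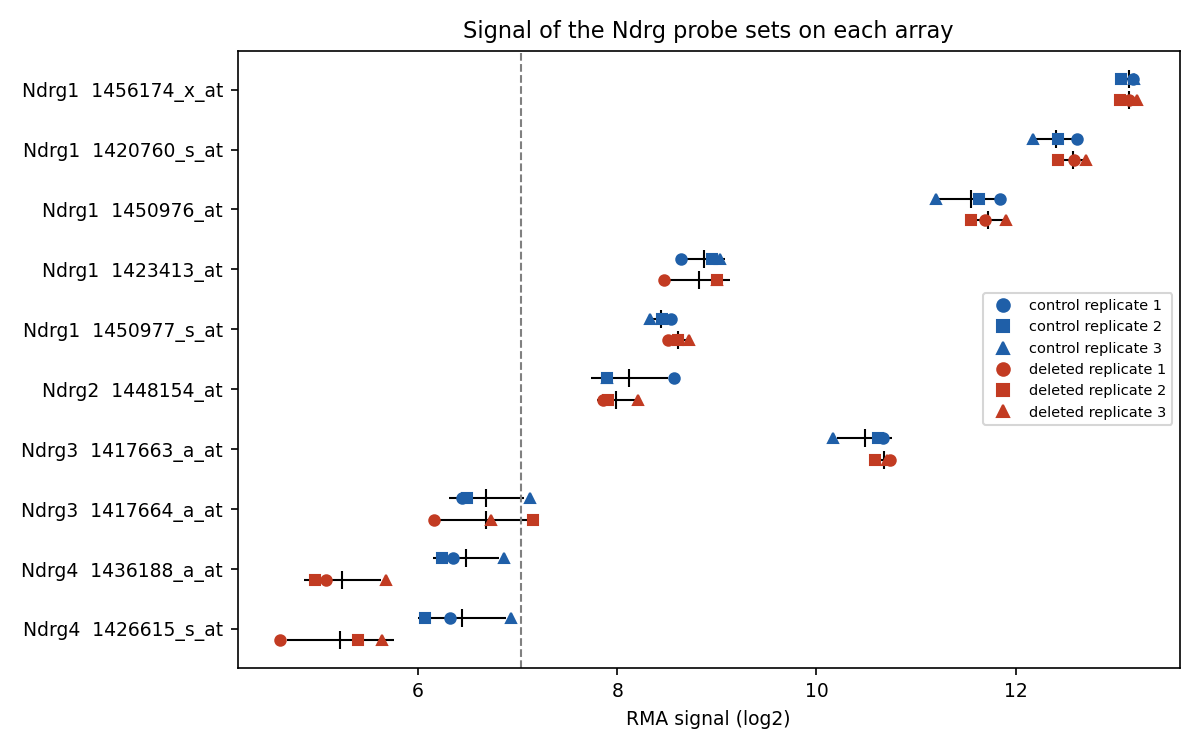
RMA signal (log2, horizontal axis) of the 10 Ndrg probe sets on each array, with control arrays in blue, deleted arrays in red and black bars that give means with their SD (n = 3 per group). The overall median, 7.04, is drawn as a dashed line. The groups are apart at both Ndrg4 probe sets and overlap at the other 8.

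Of the 10 Ndrg probe sets, 2 had groups without overlap, both with the deleted samples lower, and 8 had overlapping groups. Of all probe sets, 2.83% were without overlap in this direction and 3.61% in the other. The thresholds used in the study, more than 2-fold at an unadjusted p below 0.05, were passed by both Ndrg4 probe sets and by no other Ndrg probe set. With array quality weights neither Ndrg4 probe set passed them, at -0.97 and -0.87. The weight was 8.3 for control replicate 2 and 0.38 to 0.99 for the other arrays. Among all probe sets these thresholds were passed by 0.0777% with the deleted samples lower and by 0.0511% with them higher. Nothing is read from the Ndrg4 counts, since Ndrg4 was chosen on this contrast. limma's moderated test with Benjamini-Hochberg adjustment called 0 of the 45037 probe sets (0%), with a smallest adjusted p of 0.9999. Without adjustment 934 probe sets (2.07%) had a p under 0.05 in limma's test. That share is below the fraction of 0.05 that this threshold passes on average when no probe set differs. Of all probe sets 1.1% passed it with the deleted samples lower, among them both of Ndrg4, and 0.977% with them higher. Unmoderated tests with equal or unequal variances also called 0 after adjustment. Of the 10 Ndrg probe sets 6 had a negative difference, against 47.3% of all probe sets.

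Both Ndrg4 probe sets were dim. Their means over the 6 arrays, 5.86 and 5.83, exceeded those of 35.6% and 35.2% of all probe sets and lay below the overall median of 7.04. A dim RMA value holds much background, which can narrow differences, and noise at this level can also widen them. How far either held at Ndrg4 was not tested. Among the 5865 probe sets within 0.5 log2 units of the brighter Ndrg4 probe set, 28 (0.477%) differed by more than 1 in size. Of these 18 differed downward, among them both Ndrg4 probe sets. The SD within groups was 0.36 for the brighter Ndrg4 probe set, against a median of 0.25 over the 5865 probe sets. Among the 931 probe sets within 0.5 log2 units of the brightest Ndrg1 probe set that median was 0.16, and 0 differed by more than 1 in size.

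**Figure D2:**
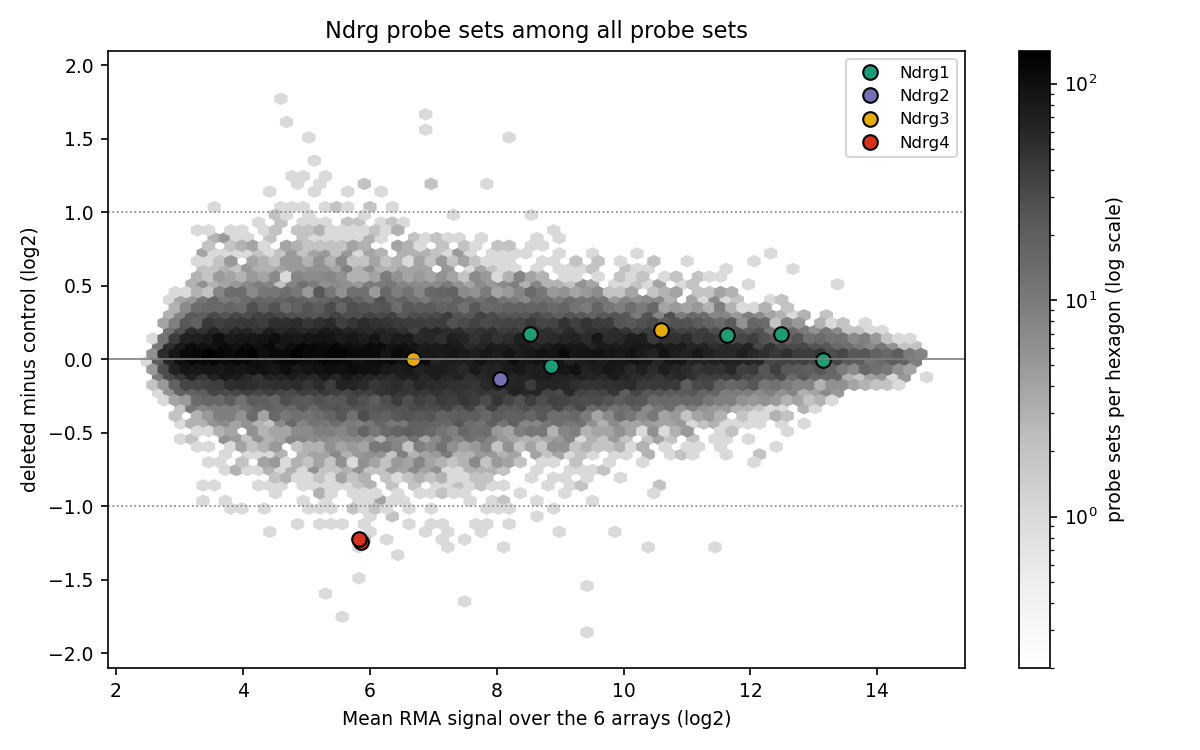
Difference between the groups (log2, vertical axis) against the mean signal over the 6 arrays (log2, horizontal axis) for all probe sets, drawn as hexagons shaded by their number on a log scale, with the Ndrg probe sets as colored points and dotted lines at differences of -1 and 1. The Ndrg4 points lie at -1.25 and -1.22, and the other Ndrg points lie between -0.14 and 0.20.

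The probe sets of Ndrg4 kept their direction with any single array left out. The difference of 1436188_a_at then ranged from -1.47 without deleted replicate 3 to -1.06 without control replicate 3. That of 1426615_s_at ranged from -1.43 to -0.92, and this probe set fell short of the study's thresholds without control replicate 3, at -0.98, and without deleted replicate 1, at -0.92. The identifier numbers in the labels are shared between control and deleted replicate 1 and between control and deleted replicate 2. Between the arrays of the same number, 1436188_a_at differed by -1.27 and -1.28, and 1426615_s_at by -1.71 and -0.67. The labels do not say what a shared number means.

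The upstream region of Ndrg4, the member whose groups were apart, is shown for its sequence, from the RefSeq table of build GRCm38.p6. It is the plus strand of the 250 bases before the most upstream annotated start, with capitals for the letters TTCCGG, which read CCGGAA on the other strand and are the core of many sites of Ets factors.
Ndrg4 (chr8:95676724-95676973, plus strand): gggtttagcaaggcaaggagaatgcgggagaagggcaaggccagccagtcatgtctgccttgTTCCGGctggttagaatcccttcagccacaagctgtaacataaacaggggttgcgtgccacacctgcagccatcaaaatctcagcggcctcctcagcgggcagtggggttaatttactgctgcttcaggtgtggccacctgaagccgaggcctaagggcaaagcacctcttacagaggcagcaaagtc
The match lies 188 to 183 bases before the start. Windows of 300 bases (250 before and 50 after a start) were matched for 3 of the 4 genes, all but Ndrg1. Ndrg4 had 4 windows, Ndrg2 had 3 and Ndrg3 had 2. CCGGAA, searched on both strands, occurred in 1 of the Ndrg4 windows and in no Ndrg2 or Ndrg3 window, and 14.9% of all 32851 promoter windows hold it. The E-box CACGTG, bound by Myc and N-Myc, occurred in 1 other Ndrg4 window, chr8:95677513-95677812, and in no Ndrg2 or Ndrg3 window, against 7.15% of all windows. The hypoxia response core ACGTG, contained in that E-box, had no match outside it in these windows, and 19.6% of all windows hold it. A match describes letters only, and these arrays did not measure binding.

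Ndrg1 had overlapping groups at each of its 5 probe sets. Its brightest probe set, 1456174_x_at, exceeded 98.4% of all probe sets and read 13.18, 13.06 and 13.19 in control and 13.14, 13.05 and 13.21 in deleted arrays. The 6 values spanned only 0.17. The means were 13.14 ± 0.07 and 13.13 ± 0.08 (SD, n = 3 each), a difference of -0.01 (95% interval -0.32 to 0.30). In Affymetrix naming the suffix x marks probe sets with probes that can also match other transcripts, and the suffix s marks probes shared by several transcripts.

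The other Ndrg1 probe sets varied more between arrays. The probe set 1420760_s_at read 12.61, 12.42 and 12.17 in control and 12.59, 12.43 and 12.70 in deleted arrays, a difference of 0.17 (95% interval -0.22 to 0.56). The probe set 1450976_at read 11.84, 11.63 and 11.20 in control and 11.70, 11.55 and 11.90 in deleted arrays, a difference of 0.16 (-0.31 to 0.64). At both, control replicate 3 was the lowest and deleted replicate 3 the highest array. Without control replicate 3 these differences became 0.06 and -0.02. The remaining probe sets, 1450977_s_at and 1423413_at, differed by 0.17 (-0.15 to 0.50) and -0.05 (-0.52 to 0.43). The sign thus varied among the 5 probe sets, with 3 positive and 2 negative, and every interval held 0.

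Ndrg2, measured by a single probe set, 1448154_at, had overlapping groups, with 1 control array above the other 5. It read 8.57, 7.90 and 7.90 in control and 7.85, 7.91 and 8.20 in deleted arrays. The means were 8.12 ± 0.39 and 7.99 ± 0.19 (SD, n = 3 each), a difference of -0.14 (95% interval -0.66 to 0.39). Without control replicate 1 the difference turned to 0.09.

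Ndrg3 had a bright and a dim probe set, and neither separated the groups. The bright one, 1417663_a_at, read 10.67, 10.62 and 10.16 in control and 10.74, 10.59 and 10.71 in deleted arrays. All but control replicate 3 lay within 10.59 to 10.74. The means were 10.48 ± 0.28 and 10.68 ± 0.08 (SD, n = 3 each), a difference of 0.20 (95% interval -0.21 to 0.61), which became 0.04 without control replicate 3. The dim one, 1417664_a_at, read 6.44, 6.49 and 7.12 in control and 6.16, 7.16 and 6.74 in deleted arrays, a difference of -0.00 (SE 0.30). Control replicate 3, the lowest array at the bright probe set, was among the highest here.

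**Figure D3:**
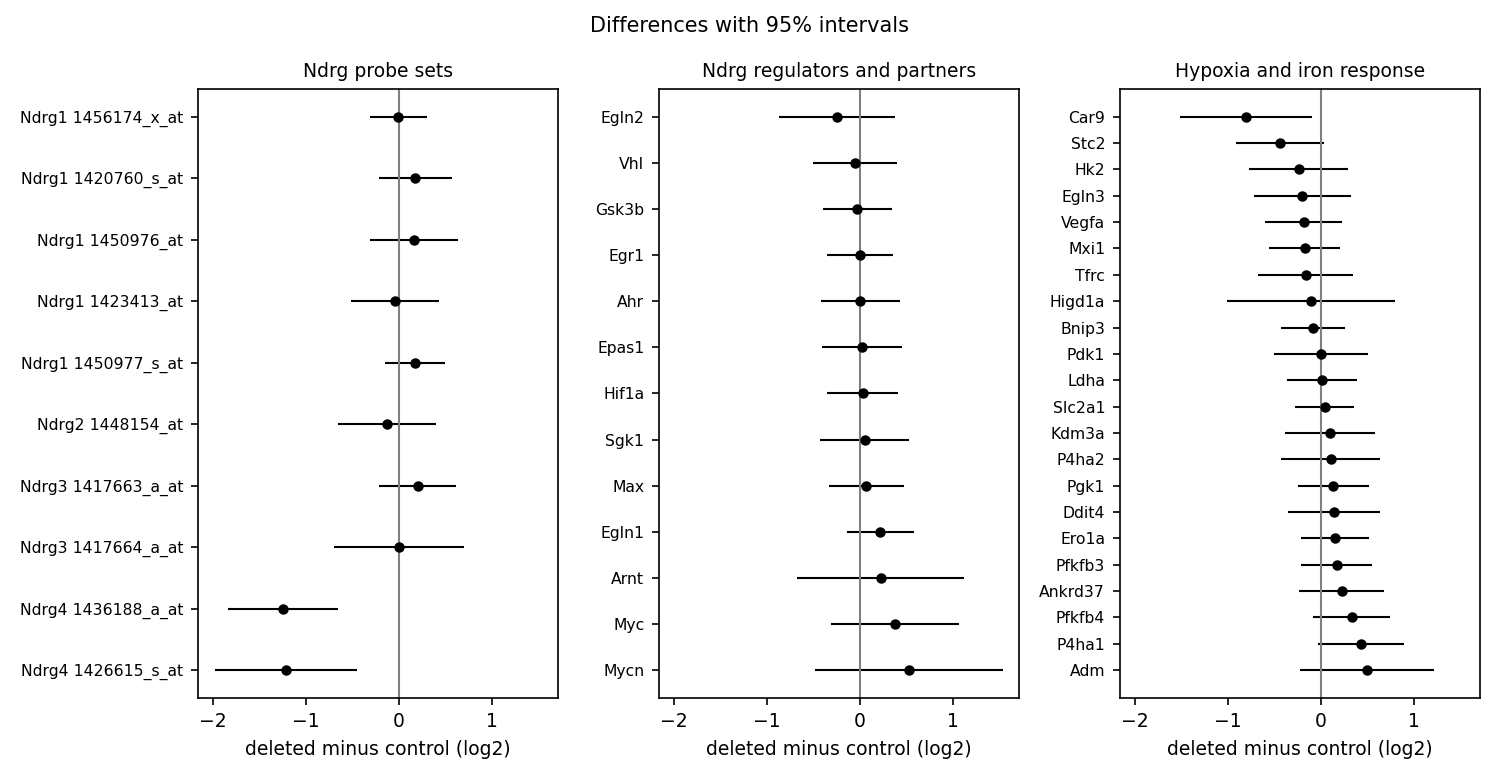
Deleted minus control difference (log2, horizontal axis) with its 95% interval from limma for the Ndrg probe sets (left), regulators and partners of Ndrg proteins (middle) and hypoxia and iron response genes (right), each gene of the last lists by its brightest probe set. The intervals of Ndrg1, Ndrg2 and Ndrg3 hold 0, as do those of all 13 regulators and of 21 of 22 hypoxia genes, the exception being Car9.

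Known regulators and partners of the Ndrg proteins lay on both sides of 0. Of 16 such genes 13 were measured by a probe set with 1 gene, of which 3 were lower and 10 higher, with a median difference of 0.03 against 0.00 over all 18193 genes (-0.09 to 0.13 with 1 array left out). limma called 0 of the 13 in either direction after adjustment, as of all genes, so that this count does not set the list apart. Of the 13, 0 had groups without overlap, against 2.7% of all genes with the deleted samples lower and 3.36% with them higher. Mycn, which encodes the N-Myc that represses Ndrg1, read 8.82, 8.60 and 8.63 in control and 10.09, 8.21 and 9.32 in deleted arrays, a difference of 0.52 (95% interval -0.49 to 1.53). Its deleted arrays lay on both sides of the control arrays. Myc differed by 0.38 (-0.31 to 1.07). Sgk1 differed by 0.05, the hypoxia factor subunits Hif1a and Epas1 by 0.03 and 0.02, and the oxygen sensor Egln1 by 0.22. Without deleted replicate 1 Mycn differed by 0.08 and Myc by 0.16.

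Genes of the hypoxia and iron response, which commonly move with Ndrg1 when oxygen or iron falls, lay on both sides of 0. Of 23 listed genes 22 were measured, 10 lower and 12 higher, with a median difference of 0.03, and limma called 0 after adjustment, as of all genes. Car9, a carbonic anhydrase induced by hypoxia, read 7.55, 7.92 and 8.61 in control and 7.49, 7.36 and 6.84 in deleted arrays. The groups were apart by a narrow margin, with a difference of -0.80 (SE 0.30), and without control replicate 3 it was -0.51. The prolyl hydroxylase gene P4ha1, at 0.43, and the glycolytic regulator Pfkfb4, at 0.33, had groups without overlap in the other direction. Thus 1 gene was apart downward (4.55%) and 2 upward (9.09%), against 2.7% and 3.36% of all genes. Nothing is read from counts this small. The peptide hormone gene Adm differed by 0.50 (-0.22 to 1.22) and Vegfa by -0.19 (-0.59 to 0.22).

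Markers of some other cell types were also lower in the deleted samples, though none was called after adjustment. In bulk samples such as these, fewer cells of a type and less RNA per cell cannot be told apart. All 14 macrophage markers were lower in the deleted samples, with a median of -0.67, and 6 of them had groups without overlap. Of all genes 49.1% were lower and 2.7% were lower without overlap. The macrophage markers had a mean signal of 9.27 to 9.76 in control and 8.60 to 9.09 in deleted arrays. Mrc1, at -0.93, was among the genes without overlap. Groups overlapped at Adgre1, at -0.91, and at C1qb, at -1.30 (-0.85 without control replicate 3). The 13 fibroblast markers were all lower as well (median -0.47), 6 of them without overlap (2.7% of all genes). Their mean signal was 9.40 to 9.75 in control and 8.91 to 9.07 in deleted arrays. Col14a1, at -1.16, and Pdgfra, at -0.59, had groups without overlap, and at Ogn, at -1.02, the groups overlapped. limma called 0 markers of either list after adjustment, as of all genes, and without control replicate 3 the macrophage median became -0.43.

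Mast cell markers were the only further list of the 11 whose mean signal was apart, at 6.06 to 6.16 in control and 5.92 to 5.98 in deleted arrays. Of its 8 genes 5 were lower and 3 higher, with a median of -0.14. No single gene had groups without overlap, against 2.7% of all genes with the deleted samples lower and 3.36% with them higher. The proteases Mcpt4 and Tpsb2 differed by -0.64 and -0.41 and were dim, exceeding 25.1% and 30.6% of all probe sets. Schwann cell and nerve markers, of interest because Ndrg4 and Ndrg1 are known from neurons and Schwann cells, were measured by 14 of 16 genes, 9 lower and 5 higher, with a median of -0.14 (-0.02 without control replicate 3). Their mean signal overlapped between the groups. The largest differences of the list were those of Sox10, a factor of the Schwann cell lineage, at -0.62 (-0.20 without control replicate 3), and the myelin gene Mbp at -0.38 (-0.17 without deleted replicate 3). The myelin gene Cnp differed by -0.20. Sox10, Mbp and Cnp exceeded 95.5%, 78.7% and 92.6% of all probe sets. The neuronal genes Snap25, Tubb3 and Elavl4 exceeded 9.51%, 23.1% and 23.5% of all probe sets and differed by -0.14, 0.16 and 0.24. Tubb3 had groups without overlap, the deleted arrays being higher (7.14% of the list, against 3.36% of all genes).

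The other lists had overlapping mean signals. The 14 endothelial markers had 2 genes lower and 12 higher, with a median of 0.13 (0.04 to 0.23 with 1 array left out). Pecam1, the CD31 of the sort, differed by 0.39, the adhesion molecule Esam by 0.30 and Cdh5, the cadherin of endothelial junctions, by 0.11. Of the 11 smooth muscle and pericyte markers 2 were lower and 9 higher (median 0.21). Tagln, at 0.62, was the gene of this list with groups without overlap (9.09% of the list upward, against 3.36% of all genes). The smooth muscle myosin Myh11 differed by 0.41. Of the 10 epithelial markers 7 were lower and 3 higher (median -0.14), with the mucin Muc1 at -0.67 (-0.21 without deleted replicate 3) and the basal keratin Krt5 at -0.38 (-0.04 without control replicate 3).

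The 6 measured adipocyte markers had a median of -0.06 (-0.25 to 0.08 with 1 array left out), with Retn at -0.26 and Cidec at -0.08. The 8 skeletal muscle markers had a median of 0.05, with Mylpf at 0.32 and Mb at -0.19. All 6 measured lymphatic endothelial markers were lower (median -0.50), with Reln at -0.94 and Lyve1 at -0.62. That median was -0.32 without control replicate 1, -0.76 without control replicate 2 and -0.30 without deleted replicate 2, and Lyve1 was -0.29, -1.08 and -0.34. Of the 8 pan-leukocyte markers 6 were lower (median -0.45), with Cd48 at -0.80, Fermt3 at -0.61 and Ptprc at -0.43. Without control replicate 3 that median was -0.19 and Ptprc differed by -0.17. Leaving out deleted replicate 1, 2 or 3 gave medians of -0.29, -0.71 and -0.26. Over all probe sets of each gene the pan-leukocyte median was -0.24. limma called 0 genes of any list after adjustment, as of all genes, so that this count sets no list apart.

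The order of single arrays at Ndrg4 matched that of these lists in part. Control replicate 3 was the highest array at both Ndrg4 probe sets and in the macrophage list, whereas control replicate 1 was the highest in the fibroblast list, at 9.75 against 9.51 for control replicate 3. Among the deleted arrays, replicate 3 was the highest at both Ndrg4 probe sets and the lowest in the macrophage and fibroblast lists. The part of other cells in the Ndrg4 difference was not tested.

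**Figure D4:**
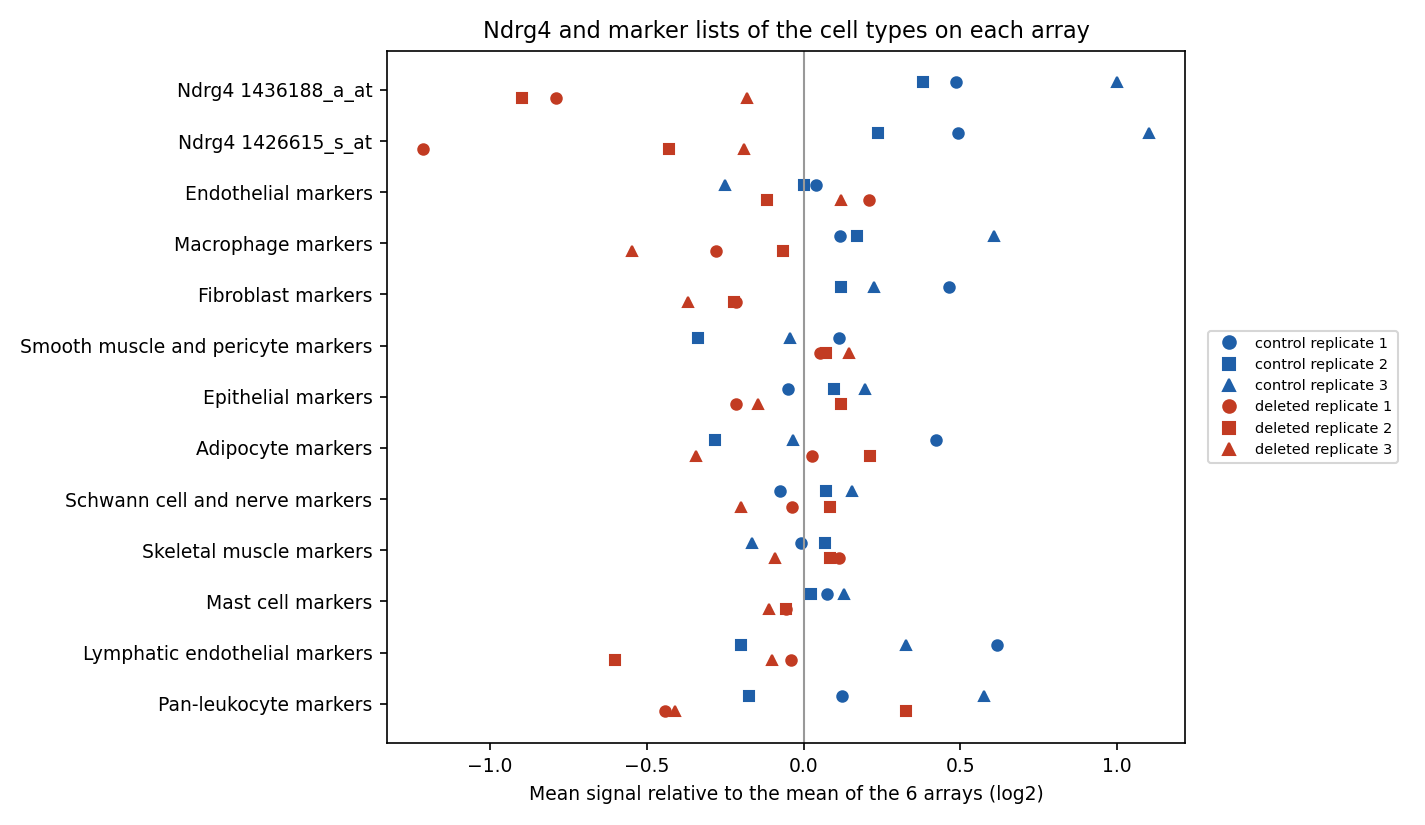
Signal of the Ndrg4 probe sets and mean signal of the marker lists on each array, relative to the mean of the 6 arrays (log2, horizontal axis), with control arrays in blue and deleted arrays in red. Control and deleted arrays are apart at Ndrg4 and in the macrophage, fibroblast and mast cell lists, and within the deleted group replicate 3 is highest at Ndrg4 and lowest in the macrophage and fibroblast lists.

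The genes whose brightest probe set most resembled that of Ndrg4 over the 6 arrays were Dvl2, a transducer of Wnt signals, and Entpd2, an ectonucleotidase, with Pearson's r of 0.99 each. They were followed by Mfsd1 at 0.97, the choline kinase Chkb at 0.97 and the F-box gene Fbxo45 at 0.96. These were taken from 11276 genes with a mean at or above the overall median, of which 42 had r above 0.9. Dvl2 read 8.61, 8.55 and 8.87 in control and 8.05, 8.04 and 8.40 in deleted arrays, a difference of -0.51. Most like the brightest Ndrg1 probe set was Taf2, a subunit of TFIID, at 0.99. Atp1b2, Gmeb2, the chemokine gene Cxcl12 and Naf1 followed at 0.98 each, and 37 of 11275 genes lay above 0.9. The values of the brightest Ndrg1 probe set spanned only 0.17, and other Ndrg1 probe sets ordered the arrays differently. These correlations describe likeness over 6 arrays alone, and at Ndrg4 the arrays form 2 separate groups, so that any gene with groups apart correlates with it.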

How the data were processed

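CD31-sorted cells of 6 samples were profiled on 1-color arrays. The authors deposited log2 values made by RMA, which subtracts background, normalizes arrays by quantiles and summarizes probe sets. The RMA version is not stated there. The values spanned 2.31 to 14.9 with array medians of 7.02 to 7.07, and were not rescaled. Of 45101 probe sets, 64 array controls were left out. By platform annotation a single gene was named for 34945, several for 932 and none here for 9160. For 34741 the gene number was found in RefSeq, whose symbol was then used. Any pair of arrays had at most 0.218% identical values.

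All 45037 probe sets were fitted with limma 3.58.1 under R 4.3.3 (eBayes after lmFit, no covariates, two-sided, Benjamini-Hochberg at 0.05), which was tested on simulated data. With 3 arrays a group, their number limits the precision. List genes are given by their brightest probe set. The text names all Ndrg probe sets, the 2 members of each list with the largest differences, 10 genes fixed in the lists, and the 5 genes most like Ndrg1 and Ndrg4. Further genes (P4ha1 and Pfkfb4, Cnp and the neuronal genes, Epas1 and Egln1, and the markers used to check the sort) were chosen once values had been seen. The members and lists were chosen with earlier results of these data known. Alternatives were scaling, array weights, blocks by identifier number, other tests, a filter on dim probe sets and leaving out each array.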

Additional observations from a re-analysis of the deposited data

How the results depend on the processing

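Of the recomputed differences of Ndrg probe sets, 109 moved by less than the SD within groups and 4 by more, all of Ndrg1. The brightest Ndrg1 probe set differed by 0.076 with array quality weights, and the mean over the Ndrg1 probe sets was 0.090. With these weights the Ndrg4 probe sets differed by -0.97 and -0.87, short of a fold change of 2. A filter at the median signal removes both Ndrg4 probe sets. The count of 58 probe sets past the study's thresholds became 152 with array weights, 15 with the filter and 23 and 18 in unmoderated tests with equal and unequal variances, and ranged from 61 to 191 with 1 array left out. Leaving out control replicate 1 gave 153 and control replicate 2 gave 90, and leaving out deleted replicate 2 or 3 gave 191 or 159. With the identifier number as a fixed replicate block it became 317, and Ndrg4 differed by -1.28 and -1.19. Deviations of arrays with the same number correlated at 0.17 and -0.02, and the labels do not say whether a shared number pairs the samples. With 1 array left out, list medians ranged from 0.035 to 0.36 for smooth muscle, -0.25 to 0.023 for epithelial and -0.22 to -0.070 for mast cell markers, the last becoming -0.044 over all probe sets of each gene. In that setting the medians were -0.51 for macrophage, -0.47 for fibroblast, -0.39 for lymphatic endothelial and -0.24 for pan-leukocyte markers. limma and the unmoderated tests called 0 probe sets after adjustment under each alternative run.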
